A study of Mus musculus with 9 samples.

Results

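AU020206, AI504432, Pald1, Tifab, Tmem158, Cetn4 and Enc1 are 7 little-studied genes of 17075 measured in murine microglia exposed to medium from human glioma cells. They were chosen by their signals on these same arrays, which earlier results had shown to differ between glioma-conditioned medium (GCM) and control, so their values in that contrast are a description and carry no test. The platform's annotation gives them 13 probe sets with a single symbol, and the probe set with the highest mean over the 9 arrays stands for each gene. Microglia were isolated from cortical cultures of C57BL/6J mice of postnatal days 0 to 2 and seeded 48 h before treatment in serum-containing medium. Of the groups, 3 cultures received GCM LN18 for 6 h, 3 received GCM U87-MG for 6 h, and 3 were left without GCM as control. LN18 and U87-MG are established human glioblastoma lines, each a single tumour's cells, and GCM was microglia medium that had stood on them. Whether the control dishes got a change of medium at the same time is not stated. The methods describe experiments in general as repeated on independent cultures. For the arrays they give only 3 replicates, without saying which cultures these came from. Each sample was hybridized to 1 array of the Affymetrix MG-430 PM strip type.

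Microglia are the resident macrophages of the brain and change their gene expression when they meet factors released by glioma cells. The 7 genes have no common pathway. AU020206 and AI504432 are transcribed into long non-coding RNAs of unknown role. Pald1 encodes paladin, a phosphatase-domain protein known from mouse endothelium, where it restrains VEGF receptor signalling, and Tifab encodes a relative of TIFA that restrains TRAF6 and NF-κB signalling. Tmem158, also called Ris1, encodes a membrane protein that was found induced by Ras in senescent human fibroblasts. Cetn4 encodes a centrin, a calcium-binding protein of centrioles and the bases of cilia, and Enc1 encodes an actin-binding BTB-kelch protein known from neurons, whose family brings substrates to the ubiquitin ligase Cul3.

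The values are the deposited log2 signals, which ran from 1.56 to 12.88 over all probe sets, with array medians between 3.39 and 3.41 and a median gene mean of 4.34. The level of 1 probe set cannot be set against that of another, so each gene is compared only with itself. Arrays have no read depth, and the small number of them, 3 per group, limits precision. In bulk cultures fewer cells of a type and less RNA per cell cannot be told apart. Of the 12 microglia markers listed, 11 were measured, and their mean signal lay between 9.44 and 9.47 with GCM LN18, 9.28 and 9.46 with GCM U87-MG and 9.04 and 9.18 in control. By the test, 4 of the 11 were higher in GCM LN18 (2.59% of all genes were), of which Aif1 and C1qa were no longer called by limma with the replicate number as a block in the fit, at adjusted p of 0.104 and 0.226. Cx3cr1, higher by 0.97, and Tmem119, higher by 0.91, kept their call with the block, at adjusted p by limma of 0.00825 and 0.0389. In GCM U87-MG 1 marker was called, Cx3cr1 at 0.78, beside 0.808% of all genes. The part of these markers in the results below was not tested. P2ry12, a receptor that marks microglia in the brain, was dim, with means of 3.81 ± 0.21 in GCM LN18, 3.71 ± 0.26 in GCM U87-MG and 3.44 ± 0.12 in control (SD, n = 3 each). Of the markers of other cells, 9 of 10 for neurons, 7 of 8 for astrocytes, 5 of 6 measured for the oligodendrocyte lineage and 6 of 6 for fibroblasts and mural cells had signals of at most 4 on every array. None of those lists had a member past the test in either medium.

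The long non-coding RNA AU020206 (probe set 1433935_PM_at) was about 2-fold higher in both media than in control. Its log2 signals were 9.32, 9.57 and 9.17 with GCM LN18, 9.38, 9.11 and 9.39 with GCM U87-MG, and 8.21, 8.24 and 8.36 in control. All 6 treated arrays lay above the 3 control arrays with a gap wider than the range of any group. The differences from control were 1.08 for GCM LN18 and 1.03 for GCM U87-MG on the log2 scale, which are folds of 2.12 and 2.04. The gene occupies chr7:75769038-75782120 of GRCm38.p6, on the minus strand. This position, and the sequence and neighbours given with it, rest on a match by symbol, since the platform and RefSeq give AU020206 different gene identifiers. The 150 bases before its start are shown because they hold the only PU.1 core found among the windows of these genes, PU.1 being the transcription factor that defines macrophages and microglia. RefSeq gives them as chr7:75782121-75782270 on the minus strand, here from 5′ to 3′, with the PU.1 core (GAGGAAG, read on the other strand) and the reversed CCAAT boxes in capitals:
AU020206: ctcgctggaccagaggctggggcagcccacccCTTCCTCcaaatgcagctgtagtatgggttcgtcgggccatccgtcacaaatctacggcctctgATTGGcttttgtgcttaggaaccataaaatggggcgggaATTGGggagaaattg

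The PU.1 core begins at position -118 from the start and was found in 13.6% of 32851 RefSeq promoter windows of the same 300 bases. CCAAT boxes were found in 37.4% of those windows, and that motif was added after the sequences had been seen. A match is a run of letters and was not tested as a binding site.

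AI504432 (1455161_PM_at), the other long non-coding RNA, had signals of 6.90, 6.55 and 6.35 with GCM LN18, 6.77, 6.38 and 6.69 with GCM U87-MG, and 5.11, 5.85 and 5.74 in control. The treated arrays did not overlap with control, but control replicate 1 lay well below the other control arrays. The mean differences were 1.03 for GCM LN18 and 1.05 for GCM U87-MG, folds of 2.04 and 2.06. Taken by replicate number, GCM LN18 exceeded control by 1.78, 0.70 and 0.61 and GCM U87-MG by 1.66, 0.53 and 0.95, so the 2-fold mean rested on replicate 1. Without control replicate 1 the differences were 0.81 and 0.82, the lowest of those with any array left out. The gene lies at chr3:107039504-107054322, between the potassium channel genes Kcna3 and Kcna2. Kcna3 ends 1.37 kb from it and Kcna2 starts 36.6 kb away.

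Pald1 (1448134_PM_at) had signals of 8.14, 8.26 and 7.87 with GCM LN18, 7.91, 7.43 and 7.97 with GCM U87-MG, and 6.58, 6.94 and 6.80 in control. Every treated array was above every control array, and GCM U87-MG replicate 2 was the lowest treated array. The differences from control were 1.32 for GCM LN18 and 1.001 for GCM U87-MG on the log2 scale, folds of 2.49 and 2.001. The gene spans chr10:61319656-61383546 on the minus strand. Because Pald1 is known from vessels, the endothelial markers stand beside it: 8 of 10, the cadherin gene Cdh5 and the claudin gene Cldn5 among them, had signals between 2.19 and 3.94 on all arrays. The remaining 2 were the VEGF receptors Flt1, at 6.39 to 7.26, and Kdr, at 5.03 to 5.40. None of the 10 passed the test in either medium, and their mean signal lay between 3.48 and 3.56 with GCM LN18, 3.49 and 3.55 with GCM U87-MG and 3.47 and 3.50 in control.

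Tifab had the largest mean difference between the media among the 7 genes. Its brighter probe set (1436397_PM_at) had signals of 6.55, 6.50 and 6.47 with GCM LN18, 6.03, 5.32 and 5.99 with GCM U87-MG, and 5.01, 5.77 and 5.13 in control. The GCM LN18 arrays were tight and above all others, whereas GCM U87-MG overlapped with control through a low replicate 2 in the treated and a high replicate 2 in the control group. The differences from control were 1.20 for GCM LN18 (2.30-fold) and 0.47 for GCM U87-MG (1.39-fold). By replicate number the GCM U87-MG difference was 1.02, -0.46 and 0.86, so its direction turned in replicate 2. The gene spans chr13:56173703-56179002. A second Tifab probe set (1444546_PM_at), dimmer at a control mean of 2.85, gave differences of 0.98 and 0.29 and again a negative value, -0.66, in replicate 2 of GCM U87-MG.

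Tmem158, at chr9:123259057-123260789, was the single gene of the 7 that was lower in GCM. Its brightest probe set (1428074_PM_at) had signals of 4.54, 4.25 and 4.47 with GCM LN18, 5.10, 4.82 and 4.95 with GCM U87-MG, and 5.39, 5.96 and 5.61 in control. The 3 groups did not overlap, with GCM LN18 lowest and control highest. The differences from control were -1.23 for GCM LN18, a 2.35-fold lower signal, and -0.69 for GCM U87-MG, a 1.62-fold lower one. The other probe sets of Tmem158 were dim, with control means of 3.66 and 3.24, and showed differences of -0.20 and -0.15 in GCM LN18 and -0.16 and 0.06 in GCM U87-MG. The lower level therefore rests on 1 probe set of 3.

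**Figure D1:**
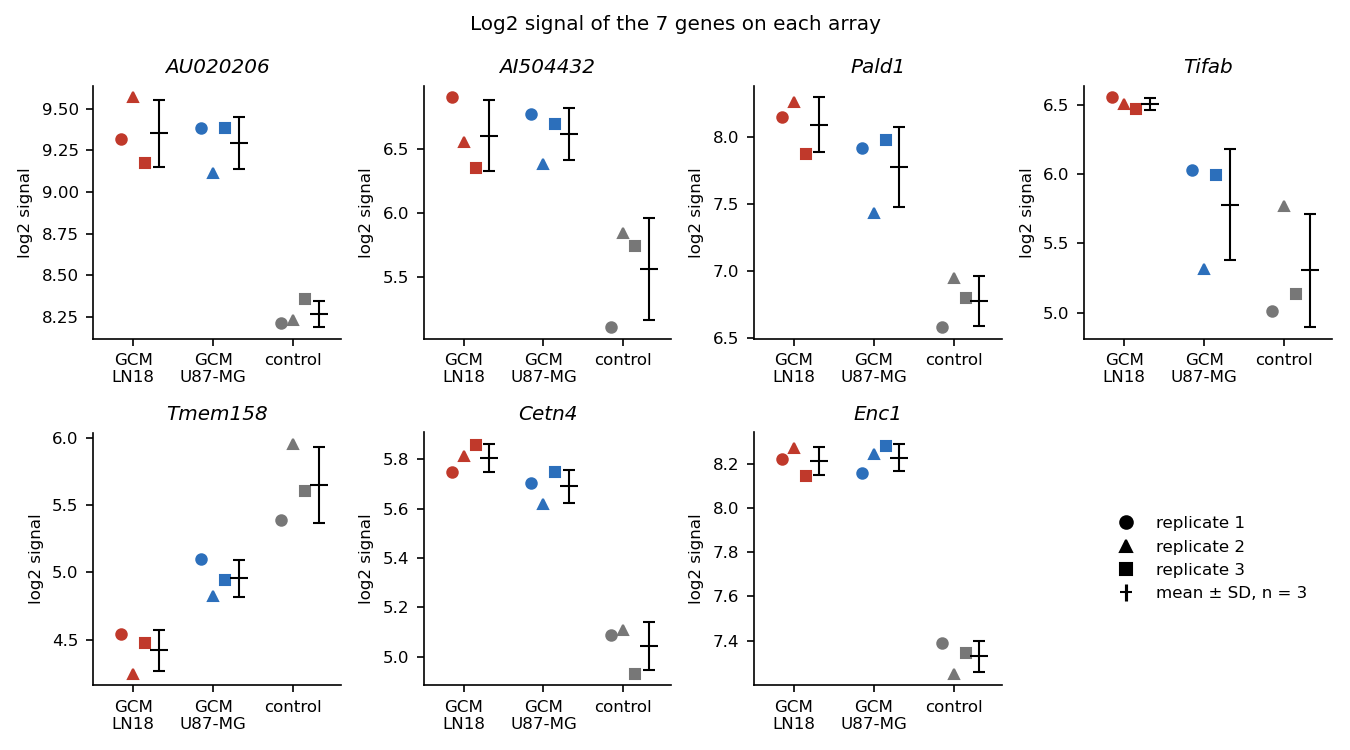
Log2 signal of the brightest probe set of each gene (vertical axis, a scale of its own per panel that does not start at 0) on the 9 arrays, with marker shape giving the replicate number and the bar the mean ± SD of 3 arrays. Tmem158 is highest in control, Tifab arrays of GCM U87-MG and control overlap, and the treated arrays of the other 5 genes lie above control.

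Cetn4 and Enc1 differed from control by less than 2-fold but with little spread. Cetn4 (1436617_PM_at, chr3:37308627-37312446) had signals of 5.75, 5.81 and 5.86 with GCM LN18, 5.71, 5.62 and 5.75 with GCM U87-MG, and 5.09, 5.11 and 4.93 in control. No treated array overlapped with control, and the differences were 0.76 (1.70-fold) for GCM LN18 and 0.65 (1.57-fold) for GCM U87-MG. The second Cetn4 probe set (1445511_PM_at) was dim at a control mean of 3.17 and differed by 0.05 and 0.07.

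Enc1 (1420965_PM_a_at, chr13:97241105-97253040) had signals of 8.22, 8.27 and 8.14 with GCM LN18, 8.16, 8.24 and 8.28 with GCM U87-MG, and 7.39, 7.25 and 7.35 in control. The treated groups coincided and stood clear of control, with differences of 0.88 (1.84-fold) for GCM LN18 and 0.90 (1.86-fold) for GCM U87-MG. The second bright probe set (1450061_PM_at) differed by 0.69 and 0.73, and the dimmest one (1420964_PM_at) by 0.23 and 0.32, so all 3 probe sets of Enc1 had the same direction in both media.

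**Figure D2:**
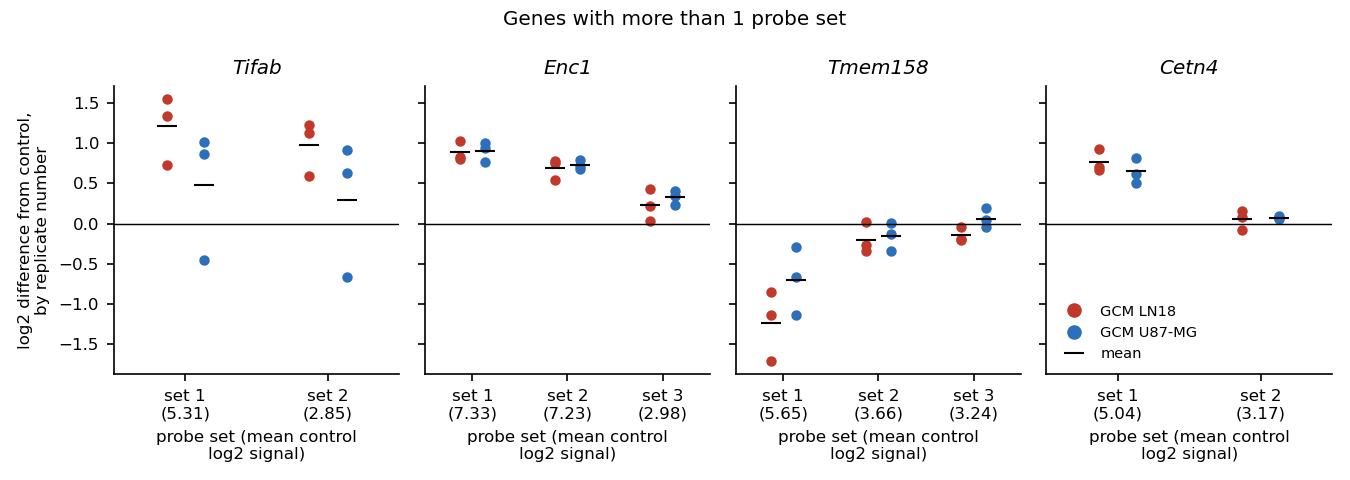
Log2 difference from the control array of the same replicate number (points; horizontal axis, probe sets from bright to dim with the mean control log2 signal in brackets) for the 4 genes with more than 1 probe set, with the mean as a line. The probe sets of Tifab and Enc1 run the same way, while the dim sets of Tmem158 and Cetn4 stay between -0.35 and 0.19.

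In the fit by limma across all 17075 genes, 7 of the 7 genes were past an adjusted p of 0.05 in GCM LN18, where 5.24% of all genes were. In GCM U87-MG it was 6 of 7, beside 1.52%. The treated arrays lay entirely above or below control for 7 of the 7 genes in GCM LN18, where 11.1% of all genes lay above and 12.8% below, and for 6 in GCM U87-MG, where 8.8% and 10.3% did. Since this contrast chose the genes, nothing is read from these counts. With the replicate number as a block in the fit, 5 and 3 of the 7 were past the threshold, beside 0.878% and 0.0469% of all genes. Both contrasts share the control arrays, and so an extreme control array enters both differences of a gene. The deposited values of a probe set also average to the same level in each replicate number, so an array above its group forces another array of that number below its own. The fit on groups alone does not count this, so its p-values are too small and its intervals too narrow.

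**Figure D3:**
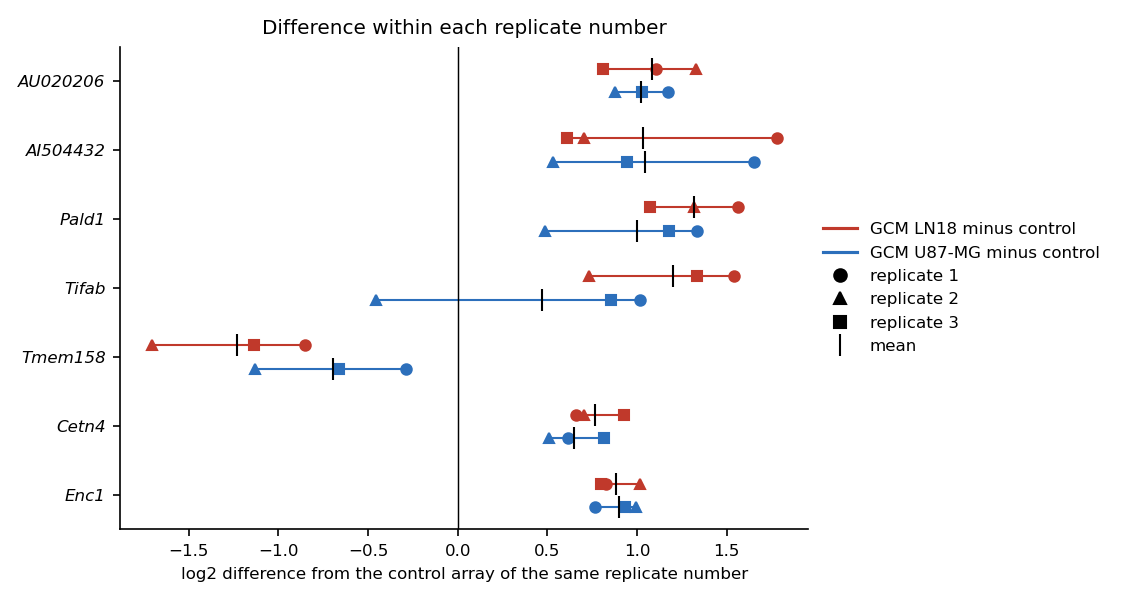
Log2 difference of each treated array from the control array of the same replicate number (horizontal axis; marker shape, replicate number; vertical tick, mean), for either medium. AI504432 spreads most between replicates among the genes higher in both media, at 0.61 to 1.78 in GCM LN18, and Tifab in GCM U87-MG crosses 0.

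Whether the 2 media differed was tested directly, on the same treated arrays; earlier results had shown some of the genes past 2-fold in 1 medium only. None of the 7 genes passed the test in the limma fit, and 1 of all 17075 genes did (0.00586%). At an unadjusted p under 0.05 there were 2, Tifab and Tmem158, beside 2051 of all genes, and their GCM LN18 arrays did not overlap with those of GCM U87-MG, as was so for 8.93% of all genes in the higher and 8.49% in the lower direction.

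Tifab was 0.73 higher in GCM LN18 than in GCM U87-MG on the log2 scale (95% interval 0.23 to 1.23, adjusted p by limma 0.271). With the replicate block its interval was 0.18 to 1.28 and its adjusted p by limma 0.926. Tmem158 was 0.54 lower (difference -0.54, interval -0.85 to -0.23, adjusted p by limma 0.206). With the block its interval was -0.88 to -0.19 and its adjusted p by limma 0.915. Each gene kept its direction in 3 of 3 replicate numbers, as groups whose arrays do not overlap must. Pald1 differed by 0.32, with an interval of -0.04 to 0.67 that leaves room for no difference and for one of more than 1.5-fold. It was 0.15 without GCM U87-MG replicate 2, its lowest value with any array left out, and 0.43 without GCM LN18 replicate 3, its highest. The intervals were -0.02 to 0.25 for Cetn4, -0.13 to 0.10 for Enc1, -0.18 to 0.30 for AU020206 and -0.47 to 0.44 for AI504432. Those of Cetn4 and Enc1 are narrow, and with the replicate block they were -0.05 to 0.28 and -0.17 to 0.14. That of AI504432 would hide a sizeable difference in either direction.

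**Figure D4:**
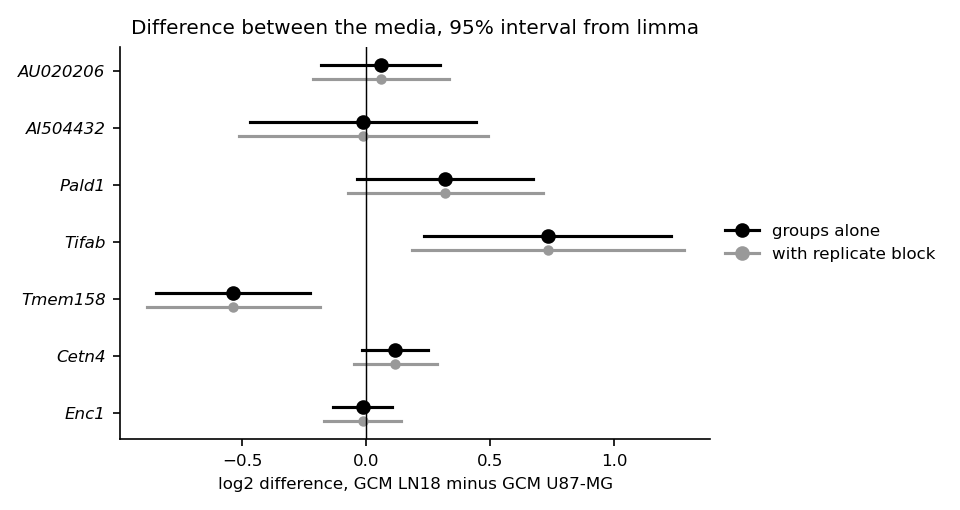
Log2 difference between GCM LN18 and GCM U87-MG for each gene (horizontal axis) with its 95% interval from limma, fitted on the groups alone (black) and with the replicate number as a block (grey). Only the intervals of Tifab and Tmem158 leave out 0, before any adjustment over the 17075 genes.

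The measured genes next to the 7 in the genome were examined, 3 on each side, 42 in all. In GCM LN18, 4 of these 42 were higher by the test, which is 9.52% of them beside 2.59% of all genes, and 0 were lower, as 2.64% of all genes were. In GCM U87-MG, 3 were higher, 7.14% beside 0.808%, and 0 were lower, beside 0.709%. The other 38 neighbours differed by -0.31 to 0.19 in GCM LN18 and by -0.22 to 0.22 in GCM U87-MG. The neighbours called were Bbs12, Cxcl14, Akap13 and Klhl25. No neighbour of AI504432, Pald1, Tmem158 or Enc1 passed the test in either medium.

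Bbs12, which encodes a chaperonin-like protein that helps to assemble the BBSome of cilia, lies back to back with Cetn4, on the opposite strand. The annotated genes leave 100 bases between them, which are shown because both genes start at their ends. They span chr3:37312447-37312546 of GRCm38.p6 and are given from RefSeq on the minus strand, 5′ to 3′, so that Bbs12 lies to the left and Cetn4 to the right, with a reversed CCAAT box in capitals:
Cetn4 and Bbs12: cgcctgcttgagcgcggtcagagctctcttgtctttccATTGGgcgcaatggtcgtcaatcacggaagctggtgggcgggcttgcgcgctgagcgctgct

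Bbs12 had signals of 4.50, 4.39 and 4.34 with GCM LN18, 4.18, 4.10 and 4.20 with GCM U87-MG, and 3.43, 3.62 and 3.57 in control. The 3 groups did not overlap, and the signal was dim throughout. It rose by 0.87 in GCM LN18 (adjusted p by limma 0.000291, with the replicate block 0.00819) and by 0.62 in GCM U87-MG (adjusted p by limma 0.00432, with the block 0.0578, which ends the call). Over the 9 arrays Bbs12 and Cetn4 had a Pearson's r of 0.96, and within the groups, where only the spread between replicates counts, one of -0.13. Bbs12 and Cetn4 thus share the step between GCM and control. Replicate numbers have equal means in the deposited values, so the r within groups cannot show whether the genes vary together between cultures. Of the 100 bases, 63.0% are G or C, and none of the PU.1, AP-1 (TGANTCA), Smad (CAGAC), E-box (CACGTG) or NF-kB decamer motifs was found in them on either strand.

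AU020206 lies between Akap13, 14.4 kb away, and Klhl25, 66.2 kb away, and both were called. Akap13 encodes an A-kinase anchoring protein. Its signals were 8.81, 8.90 and 8.78 with GCM LN18, 8.76, 8.57 and 8.75 with GCM U87-MG, and 8.36, 8.45 and 8.39 in control. It was higher by 0.43 in GCM LN18 (adjusted p by limma 0.00486, with the block 0.0450) and by 0.30 in GCM U87-MG (adjusted p by limma 0.0476, with the block 0.262). The other 3 probe sets of Akap13 were dim and none of them passed the test, and the mean over all 4 differed by 0.12 and 0.11 with no call. Klhl25, a Cul3 adaptor also called ENC2 and a close relative of Enc1, was higher by 0.27 in GCM LN18 (adjusted p by limma 0.00962, with the block 0.0866) and differed by 0.17 in GCM U87-MG (adjusted p by limma 0.105). Its second, dimmer probe set differed by 0.20 and -0.0054 and did not pass the test in either medium.

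Cxcl14, a chemokine gene, lies 110 kb past Tifab, with Neurog1 and 4930550C17Rik between them. It was higher by 1.19 in GCM LN18 (adjusted p by limma 0.000281) and by 1.03 in GCM U87-MG (adjusted p by limma 0.000893), and its second probe set by 1.27 and 1.06. Its signals were 9.65, 9.78 and 9.63 with GCM LN18, 9.48, 9.43 and 9.66 with GCM U87-MG, and 8.57, 8.50 and 8.41 in control, so every treated array stood clear of control. Tifab in GCM U87-MG overlapped with control, and Neurog1 and 4930550C17Rik differed by at most 0.13 in size. The neighbours of AI504432 were Kcna3, with means of 3.03 in GCM LN18, 2.96 in GCM U87-MG and 3.11 in control, and Kcna2, with 3.85, 3.80 and 3.83 in the same order of groups. Both were dim, and neither passed the test.

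**Figure D5:**
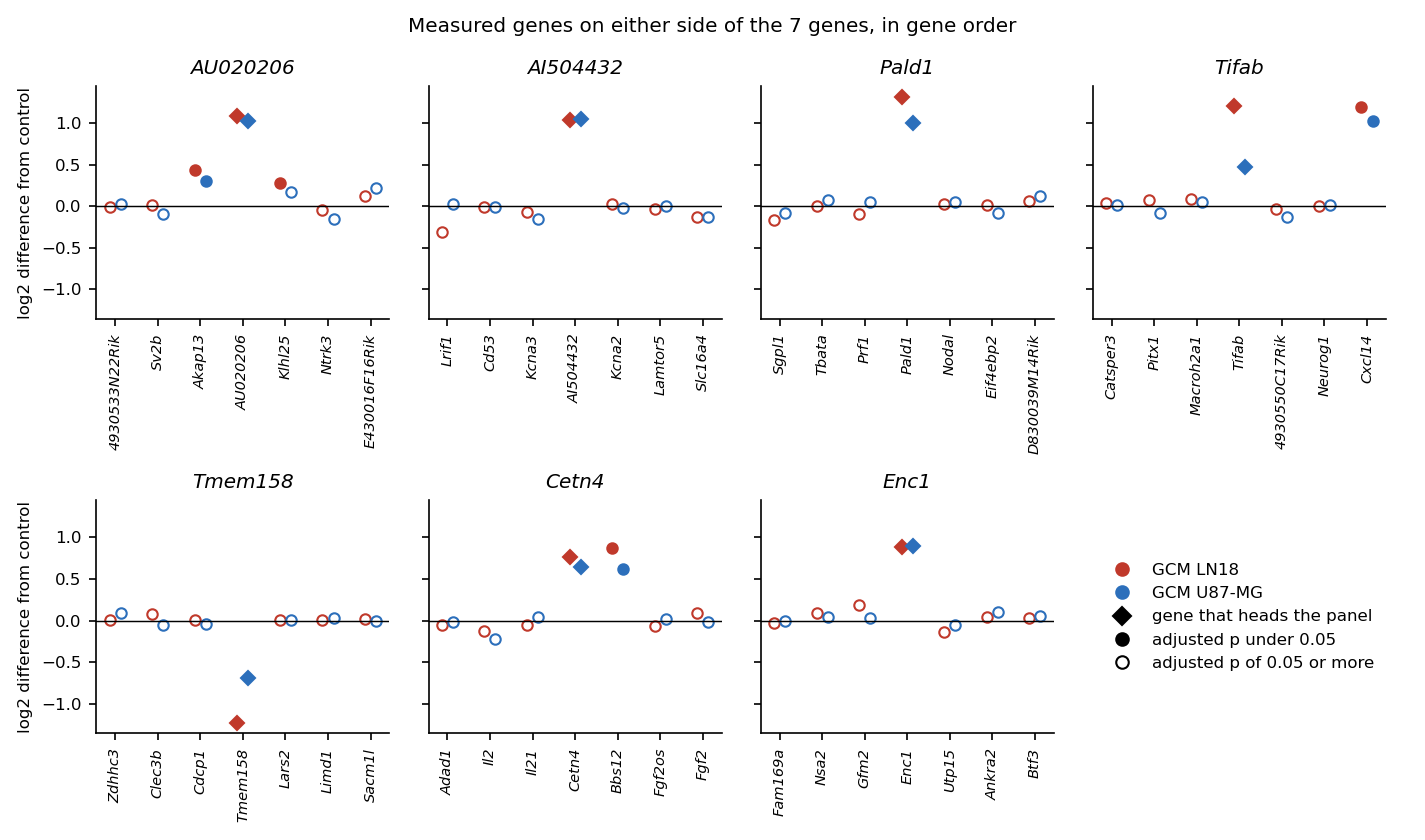
Log2 difference from control (vertical axis) of each of the 7 genes (diamonds, not tested) and of the 3 measured genes on either side in gene order (horizontal axis, not to scale), for GCM LN18 and GCM U87-MG. Filled circles are past an adjusted p of 0.05 in the limma fit on the groups alone, and these are Akap13, Klhl25 in GCM LN18, Bbs12 and Cxcl14.

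The relatives and partners of the 7 genes were taken from 5 lists. Of the 20 genes around TIFA and TRAF6, 16 were measured and 0 were called in either medium by limma, while 5.24% and 1.52% of all genes were. An unadjusted p under 0.05 was found for 2 of the 16 with GCM LN18, beside 3526 of all 17075 genes, and for 3 with GCM U87-MG, beside 2909. Tifa, the adaptor that Tifab resembles, had means of 7.88 ± 0.08 in GCM LN18, 7.97 ± 0.16 in GCM U87-MG and 7.90 ± 0.14 in control (SD, n = 3 each). The median difference of the list was -0.027 for GCM LN18 and -0.016 for GCM U87-MG, beside medians of -0.0037 and -0.0026 over all genes.

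The list of 11 centrins and their partners, all measured, also holds Bbs12. That was the only one called, 1 of 11 in each medium beside those same shares of all genes. It is the neighbour of Cetn4 counted above, so this is no further result. With the replicate block its call in GCM U87-MG ended (adjusted p by limma 0.0578). The other centrins were nearly level. Cetn2 averaged 8.51 ± 0.05 in GCM LN18, 8.45 ± 0.05 in GCM U87-MG and 8.38 ± 0.05 in control, and Cetn3 averaged 8.71 ± 0.04, 8.75 ± 0.02 and 8.79 ± 0.04 in the same groups (SD, n = 3 each). Cetn1, a centrin of the testis, was dim at 3.29, 3.38 and 3.26. The median differences of the list were 0.024 and -0.0040 in the media from LN18 and U87-MG cells.

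Of 25 BTB-kelch adaptors and Cul3, 19 were measured, and 3 were higher with GCM LN18 and 1 with GCM U87-MG, beside 2.59% and 0.808% of all genes. None was lower in either, beside 2.64% and 0.709%. One of them, Klhl25, was already counted as a neighbour of AU020206. The others were Klhl6, which is known from B cells, at 0.42 in GCM LN18 (adjusted p by limma 0.0334), and Klhl7, at 0.31 in GCM LN18 (adjusted p by limma 0.0126) and 0.28 in GCM U87-MG (adjusted p by limma 0.0458). With the replicate block none of the 3 was called by limma, at adjusted p of 0.0866 for Klhl25, 0.129 for Klhl6 and 0.0873 and 0.267 for Klhl7. Their differences were smaller than those of Enc1, and the medians of the list were 0.038 and 0.0068.

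Of 20 genes of the Ras-ERK chain and of senescence, 13 were measured, and 1 was called with GCM LN18 and 0 with GCM U87-MG, beside 5.24% and 1.52% of all genes. Cdkn2b, which encodes the cell cycle inhibitor p15, was lower by the test in GCM LN18, with a difference of -0.68 (adjusted p by limma 0.0252, with the block 0.0909), and differed by -0.46 in GCM U87-MG (adjusted p by limma 0.138). Its neighbour in the genome Cdkn2a, a marker of senescence, differed by -0.15 and -0.23 and did not pass the test. Cdkn1a, the p21 gene, averaged 9.92 in GCM LN18, 9.80 in GCM U87-MG and 9.90 in control. Of 14 VEGF receptors and endothelial phosphatase partners, all measured, only Nrp1, a co-receptor for VEGF and semaphorins, was called, and 1 of 14 is near the 5.24% of all genes called in GCM LN18. It was lower in that medium, with a difference of -0.40 (adjusted p by limma 0.0185, with the block 0.0875).

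The genes whose signal followed each of the 7 most closely over the 9 arrays were found among the 7613 genes with a mean of at least 5. The correlations below are descriptions over arrays that share the step between GCM and control. AU020206 was followed most closely by the deubiquitinase gene Usp2 with a Pearson's r of 0.99, then by the Mediator subunit Med22 and the integrin Itgb5, both at 0.98. For AI504432 these were Rrp1b, Fam220a and Itga6, between 0.98 and 0.99. Pald1 was closest to Cpd, a carboxypeptidase, at 0.995, to Akap13, the neighbour of AU020206, at 0.99, and to Gcnt1 at 0.99.

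Tifab was closest to Nme4, Niban2 and P2ry6, a receptor for UDP that prompts phagocytosis in microglia, all at 0.99. These differed less from control than Tifab did, P2ry6 by 0.34 with GCM LN18 and 0.14 with GCM U87-MG. Tmem158 was closest to Nhlrc3, Pcif1 and Pacc1, at 0.98, whose differences from control in either medium lay between -0.40 and -0.13. Cetn4 was closest to Phykpl, Bin1 and Cxcl14, at 0.99, and Enc1 to Hfe, Ptger4 and Olfml3, also at 0.99. Bbs12, which is too dim for that list, had an r with Cetn4 that would rank 27 among the 7613 genes.

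Among themselves the 6 genes higher in GCM correlated with an r of 0.65 to 0.97 over the 9 arrays, the lowest being Tifab with Enc1 and the highest AU020206 with Enc1. With the group means taken out, the 9 arrays gave other values. Tifab and Pald1 deviated together from their group means at an r of 0.82, and Tifab and Tmem158 at 0.81, although Tifab was higher and Tmem158 lower in GCM. Both had a high control replicate 2 and a low GCM U87-MG replicate 2. Enc1 and Tmem158 deviated in opposite directions at -0.82. The equal means of the replicate numbers tie opposite deviations of the groups to each other and leave 4 residual degrees of freedom. These r are descriptions, and they cannot show whether genes vary together between replicate cultures.

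Promoter windows from RefSeq, which hold 250 bases before and 50 after a start, were found for 4 of the 7 genes, Cetn4, AU020206, Pald1 and Tifab. The motif AP-1, present in 7.81% of 32851 windows, the E-box in 7.15% and the NF-kB decamer in 4.51% were found in none of the 4. The Smad motif was found once each in Cetn4, Pald1 and Tifab, and in 49.6% of all windows. The window of Pald1 was rich in G and C at 74.7%, above 95.8% of all windows, and that of Cetn4 at 67.7% above 86.8%. AU020206 at 55.7% and Tifab at 54.3% were close to the median of 52.7%.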

How the data were processed

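The table the authors deposited holds a log2 signal for every probe set on each of 9 arrays, 1 colour each, already normalized between arrays. The submitters' processing notes name limma. How background was corrected and probe sets were summarised is not given in the sources used here. Groups come from the sample titles. Of 45141 probe sets, 104 controls were left out, and 28898 of the others had a single symbol (551 had several, and 15588 are unnamed here), 28689 of which were updated by gene identifier. The brightest probe set stood for each of 17075 genes.

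Linear models with 1 mean per group were fitted to all genes and arrays in R 4.3.3 with limma 3.58.1, and a gene was called where its p-value, adjusted after Benjamini and Hochberg over all genes, was under 0.05. The deposited values average to 1 level in each replicate number within 1e-06 in 100.0% of probe sets. Adding the replicate number as a block leaves 4 residual degrees of freedom, where the fit on groups alone counts 6, and the adjusted p with the block stands beside calls that it ends. Whether a number marks a shared culture is not stated. On simulated data the fits were checked for recovery and size of 2-fold changes. No limit was set there on false calls, so that check does not bear on the p-values.

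The genes, the lists (TIFA-TRAF6 pathway, centrins and their partners, BTB-kelch adaptors and Cul3, Ras-ERK chain and senescence, VEGF receptors and endothelial phosphatase partners, and markers of microglia, endothelium, neurons, astrocytes, oligodendrocyte lineage, and fibroblasts and mural cells) and the tests were chosen with earlier results of these data known. Named genes are the 7, their close relatives, the 3 measured genes on either side, called list members and the 3 genes of highest correlation with each among those with a mean of at least 5. List members without a probe set of a single symbol were not analysed here. Sequences are from RefSeq, GRCm38.p6. Alternatives were the replicate block, another variance prior, a filter on dim genes, other probe sets, further normalization, array weights, only the groups compared and each array left out.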

Additional observations from a re-analysis of the deposited data

How the results depend on the processing

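Across the alternatives other than single dimmer probe sets, the differences of the 7 genes from control gave 238 values. Of these, 232 stayed within 1 SD of the reported one, 6 moved further and 0 changed sign. Many of the 238 could not move. The replicate block, the other variance prior, the filter on dim genes and the fit of only the groups compared leave a difference as it was. So does leaving out an array of the group not compared. The count is therefore no measure of how stable the differences are. The 6 are means over the probe sets of a gene, which bring in dim sets: -0.53 and -0.26 for Tmem158, 0.41 and 0.36 for Cetn4 and 0.60 and 0.65 for Enc1 in GCM LN18 and GCM U87-MG. Taken alone, the dim probe set 1437750_PM_at turned Tmem158 in GCM U87-MG to 0.059, and 1445511_PM_at turned the difference of Cetn4 between the media to -0.021. With single arrays left out, differences between the media ranged from -0.16 to 0.11 for AI504432, from -0.050 to 0.15 for AU020206 and from -0.049 to 0.018 for Enc1, on either side of 0, and that of Tifab in GCM U87-MG against control from 0.32 to 0.71. None of the 7 was called between the media with any array left out (0 to 0).

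Over all genes, 894 were called in GCM LN18, 259 in GCM U87-MG and 1 between the media. The fit on groups alone counts more residual degrees of freedom than values of equal replicate means leave. With the replicate block, which counts them rightly, these were 150, 8 and 0, and 1 in place of 3 neighbours was called in GCM U87-MG. The deviations of same-numbered arrays from their group means correlated at -0.72 to -0.06 over genes, against -0.14 to 0.51 for other pairs of arrays, where equal replicate means force those of the same number down, so the numbers cannot be checked for pairing. In GCM U87-MG, array weights gave 153 genes and a fit of only the groups compared 45. Between the media, a fit of only the groups compared and a variance prior with trend and robust estimation gave 0, and the filter on dim genes, quantile normalization and array weights gave 2 each. With each array left out in turn, 337 to 856 genes were called in GCM LN18, 32 to 229 in GCM U87-MG and 0 to 0 between the media. The neighbours called numbered 4 to 4, 2 to 3 and 0 to 0 in the same comparisons. Akap13 lost its call in GCM U87-MG under most of these settings, and in GCM LN18 with the mean of its probe sets. Other causes of these changes were not tested. Dim probe sets and 3 arrays per group limit what differences could be seen.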
